A study of Gossypium hirsutum with 4 samples.

Results

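In leaf chromatin of upland cotton, 263 overlapping pairs of strong D53 and B peaks had a D53 score near or above the B score. D53 is a repressor in the response to strigolactones, a class of plant hormones, and FLAG is a short peptide tag recognised by an antibody. A pair is 1 D53 peak and 1 B peak with at least 1 bp in common. Pairs were chosen by the authors' score: the geometric mean of both scores had to be at least 100, and the log2 ratio of D53 score over B score had to be above -0.5. The ratio had no upper bound: 246 of the chosen pairs lay within 0.5 of equal scores on the log2 scale, and 17 had a ratio above 0.5. The chosen pairs were 263 of 8127 overlapping pairs, or 3.24%, and 263 of the 779 pairs that met the geometric mean alone, or 33.8%. Both shares are set by the rule and are given as a description only.

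The 2 immunoprecipitates (IP) were made from leaves of upland cotton, Gossypium hirsutum, with a FLAG antibody: D53 and B, each with its own input chromatin as control. The 4 samples are 1 library for each IP and 1 for each input, with no replicates. The labels give neither the genotype of the plants, nor the promoter of a tagged protein, nor what B stands for. They name no untagged control, and read depth is unknown. With 1 library for each IP no difference below could be tested, and all values compare these peak lists, not conditions.

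In chromatin immunoprecipitation, DNA that stays with the precipitated protein is sequenced, and a peak is a stretch where reads pile up over the input. D53 belongs to a plant protein family that recruits corepressors to chromatin, and perception of strigolactone leads to its breakdown. Upland cotton is an allotetraploid, so each A chromosome has a related D chromosome of the same number, its homoeologue. Part of the assembly used in the lists is in scaffolds, of which some are named after a chromosome and others are unplaced.

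The near-equal pairs were made of 254 D53 peaks and 261 B peaks on 108 sequences. The D53 scores ran from 87 to 449 with a median of 161 over pairs, and the B scores from 84 to 439 with a median of 139. The rule bounds both scores, so the likeness of these ranges is set in part by it. The D53 score was above the B score in 168 pairs, equal in 4 and below in 91, counts that also follow in part from the rule. Among all 8127 overlapping pairs the D53 score was above in 640, equal in 264 and below in 7223, with a median log2 ratio of -0.68. Near-equal thus refers to the deposited scores, and equal scores lie above the ratio of most pairs. The near-equal pairs had a median log2 ratio of 0.11 (quartiles -0.09 and 0.28, SD 0.32 over pairs). The bound of -0.5 sets this median in part. Of the 7348 weaker pairs 36.4% had a ratio above the same bound, beside 33.8% of the strong pairs. The share varied with score. It was 21.1% of the 933 weaker pairs with a geometric mean of 50 to below 100 that shared no peak with a strong pair.

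The pairs held a large part of the top of the D53 list and almost none of the top of the B list. Of the 50 highest D53 peaks 49 were in near-equal pairs, and of the 50 highest B peaks 0 were. Among the 200 highest peaks the numbers were 164 for D53 and 17 for B. The other strong class, 442 pairs or 56.7% of the 779, had a log2 ratio below -1.5 and held 0 of the 50 highest D53 peaks and 50 of the 50 highest B peaks. In all, 1.41% of the D53 peaks carried 15.4% of the summed D53 score through these pairs, and 1.35% of the B peaks carried 7.31% of the summed B score. These ranks follow in part from the rule, which caps the B score relative to the D53 score.

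**Figure D1:**
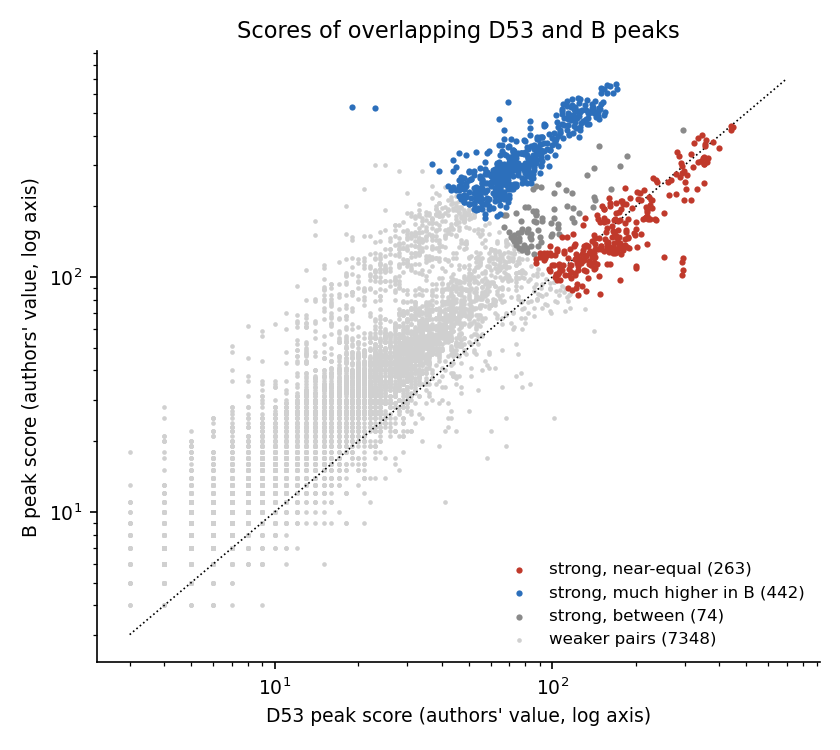
Scores of all overlapping pairs, with the D53 score on the x axis and the B score on the y axis (authors' values, both axes logarithmic); each point is 1 pair, the dotted line marks equal scores, and colours give the strong near-equal pairs (263), the strong pairs much higher in B (442), those between (74) and the weaker pairs. Most near-equal pairs lie along the dotted line, and their scores reach 449 for D53 and 439 for B. The rule's bounds on the ratio divide the near-equal pairs from the pairs much higher in B.

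The strongest pair of all was on scaffold3564_A13, a scaffold named after chromosome A13. The peak at 168736 to 169710 had a D53 score of 449, and its B partner at 168735 to 169707 had a score of 434. The next were on unplaced scaffolds: scaffold11320, at 1209 to 3609, had 441 for D53 and 439 for B, and scaffold10319, at 1301 to 5160, had 442 for D53 and 424 for B. The D53 peak on scaffold10319 was 3860 bp wide, the widest D53 peak among the near-equal pairs. The 10 highest pairs on scaffolds had D53 scores of 325 to 449 and B scores of 362 to 439.

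On chromosomes the highest pair was at D07 51886462 to 51887466, with a D53 score of 398 and a B score of 354. It was followed by A11 64560071 to 64561637, with 362 for D53 and 309 for B, and by D01 54154741 to 54155820, with 353 for D53 and 303 for B. At A10 7662712 to 7663383 the D53 score was 351 and the B score 302, and at A02 71682754 to 71683268 they were 322 and 293. These 5 pairs were each 1 D53 peak over 1 B peak, and D53 scored slightly higher in each, with log2 ratios of 0.14 to 0.23. Among the 10 highest pairs on chromosomes, the 2 with B above D53 were at D02 35621960 to 35623416, with 291 for D53 and 305 for B, and D01 27092382 to 27094515, with 293 for D53 and 297 for B.

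Pairs at the bounds of the rule differed little across them. Just inside the bound on the geometric mean were a pair on scaffold21463 with 87 for D53 and 115 for B, and A01 85025888 to 85026143 with 104 and 97. Just outside were a pair on scaffold3570_A13 with 111 for D53 and 90 for B, and a pair on scaffold20814 with 108 and 92. Just inside the bound on the ratio was a pair on scaffold7035 with 90 for D53 and 126 for B (log2 ratio -0.49), and just outside it a pair on scaffold98149 with 140 and 198 (-0.50).

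The highest ratios came from peaks that were whole in one list and split in the other. All 5 pairs with a log2 ratio above 1 belonged to a D53 peak that overlapped more than 1 B peak. Of the 17 pairs with a log2 ratio above 0.5, 8 involved a peak with more than 1 partner and the rest did not. An example of the rest was scaffold17286, with 175 for D53 and 97 for B. At A09 59234034 to 59235609 a single D53 peak of 1576 bp scored 296 and covered 3 B peaks, with scores of 107, 422 and 121. The outer pairs had log2 ratios of 1.47 and 1.29 and met the rule, while the middle one, at -0.51, missed it. Such a ratio sets a whole peak against a fragment. In all, 18 pairs came from 9 D53 peaks over several B peaks and 4 from 2 B peaks over several D53 peaks. Without them 241 pairs were left, with a median log2 ratio of 0.10 (SD 0.26).

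Paired peaks lay close on each other. The bases in common made up a median of 86.6% of the union of both peaks (quartiles 71.2 and 93.2), against 94.4% for the strong pairs much higher in B and 72.0% for the weaker pairs. The midpoints were a median of 20.5 bp apart. The near-equal peaks had a median D53 width of 369 bp (95% interval of the median 337 to 397) and a median B width of 353 bp (319 to 381). The strong pairs much higher in B were wider, at 565.5 bp (525 to 603) for D53 and 593.5 bp (549 to 636) for B, and the weaker pairs were narrower, at 316 bp (311 to 321) and 303 bp (298 to 308).

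Width rose with score within the near-equal pairs. From a geometric mean of 100 to below 125 the median D53 width was 299 bp (73 pairs), and from 300 upwards it was 1269 bp (23 pairs). In each of 5 score bands the near-equal pairs were narrower than the pairs much higher in B, at 299 against 436 bp in the lowest band, 369 against 598.5 bp from 150 to below 200 and 1269 against 2414 bp in the highest, which held 10 pairs much higher in B. The log2 ratio had no such trend, with medians between 0.04 and 0.17 in the 5 bands. Score and width are both values of the same peaks, and neighbouring peaks are not independent.

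The near-equal pairs were found in every sequence class. Of the 263 pairs, 114 were on the 26 chromosomes, or 43.3% (95% Wilson interval 37.5 to 49.4), 38 on scaffolds named after a chromosome, or 14.4% (10.7 to 19.2), and 111 on unplaced scaffolds, or 42.2% (36.4 to 48.2). All other overlapping pairs were at 44.7% (43.7 to 45.8), 19.1% (18.2 to 19.9) and 36.2% (35.1 to 37.3) in these classes, inside the intervals of the near-equal pairs for the chromosomes and the named scaffolds and just below that for the unplaced ones. Of the strong pairs much higher in B, 29.6% (25.6 to 34.1) were on chromosomes. These intervals cover counting error of pairs only. The median log2 ratio was 0.18 on chromosomes (SD 0.35), 0.08 on scaffolds named after a chromosome (SD 0.24) and 0.06 on unplaced scaffolds (SD 0.30). These values include the 22 pairs that involved a peak with several partners, which had a median log2 ratio of 0.43. Of those 22, 16 were on chromosomes and 6 on unplaced scaffolds.

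**Figure D2:**
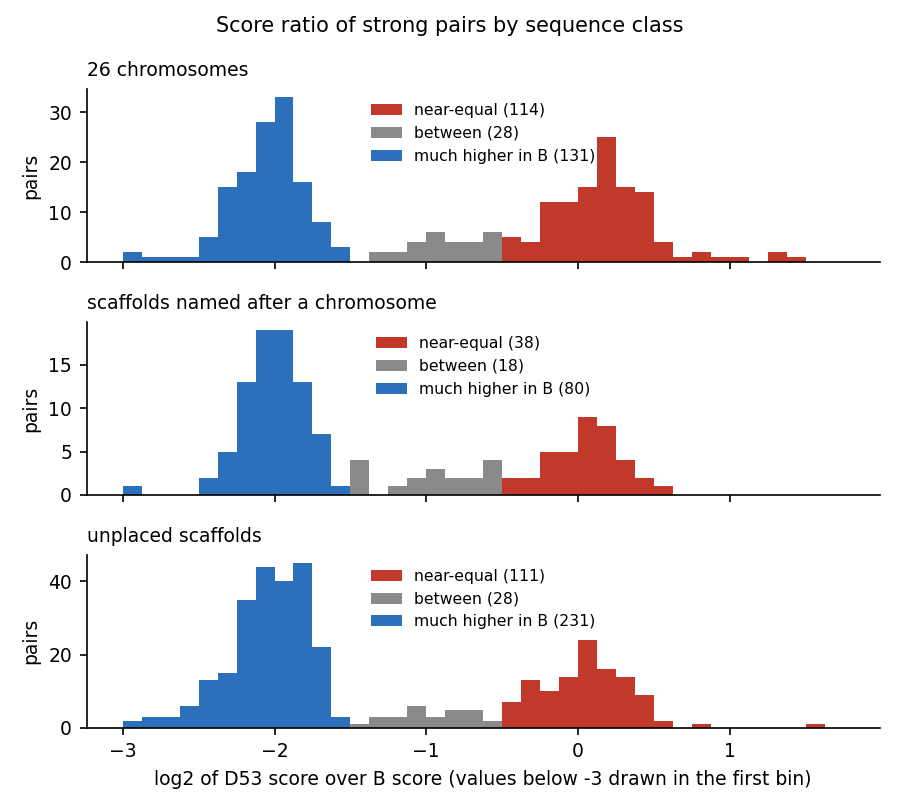
Number of strong pairs (y axis) by log2 ratio of D53 score over B score (x axis), for the 26 chromosomes, the scaffolds named after a chromosome and the unplaced scaffolds; colours give the 3 ratio classes cut by the rule, with their numbers. The near-equal pairs have medians of 0.06 to 0.18; the classes are cut on the ratio plotted, and 28, 18 and 28 pairs lie between the cuts.

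The A subgenome held most near-equal pairs that could be assigned. On chromosomes 80 of 114 pairs were on A and 34 on D, so that A held 70.2% (95% Wilson interval 61.2 to 77.8), beside 70.6% (69.1 to 72.1) of all other pairs and 60.0% of the chromosome span. The span of a chromosome is its highest peak end, since lengths were not used. Among the strong pairs much higher in B, 70 of 131, or 53.4% (44.9 to 61.8), were on A chromosomes. With scaffolds named after a chromosome included, 113 of 152 near-equal pairs were on A, or 74.3% (66.9 to 80.6), and 74.4% of all other pairs (73.1 to 75.6). The share on A thus lay within its own counting error of the share of other pairs. The median log2 ratio was 0.21 on A and 0.15 on D chromosomes, and the median D53 score 167 on A and 159 on D chromosomes.

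Single chromosomes differed more than the subgenomes did. Near-equal pairs numbered 7.01 ± 5.76 per 100 Mb of span on A chromosomes and 4.13 ± 4.48 on D chromosomes (SD, 13 chromosomes each), so the spread between chromosomes exceeded the difference. A11 held 17, A12 held 13, A03 held 10, and A09 and D08 held 9 each. A07, D03, D04, D05, D09 and D10 held 0. Scaffolds named after D04 and A07 did hold some, with 3 pairs on scaffold3975_D04, 1 on scaffold3970_D04 and 1 on scaffold1815_A07. Of the 13 pairs of homoeologues, A was denser in 7 and D in 6. A11 with 17 faced D11 with 2, and A08 with 3 faced D08 with 9.

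**Figure D3:**
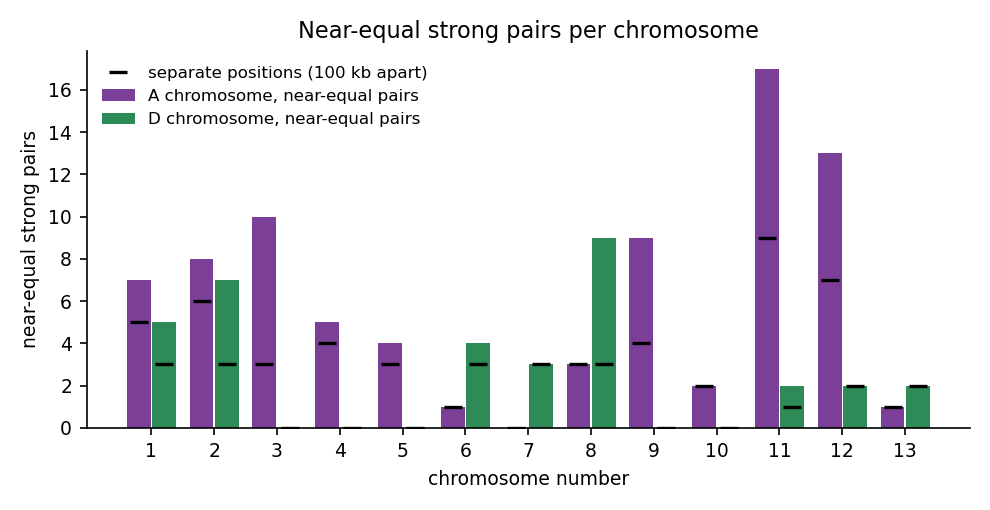
Near-equal strong pairs on each chromosome (bars, A left of D, by chromosome number on the x axis), with black marks for the number of separate positions, where pairs with midpoints at most 100 kb apart count once. A11 has 17 pairs at 9 positions, and 6 chromosomes have 0.

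Near-equal pairs often came in short runs. On chromosomes 64 of 114, or 56.1% (47.0 to 64.9), had another such pair within 20 kb, measured between midpoints, and the number did not grow when the distance was widened to 100 kb. The others were lone: 50 of the 68 separate positions on chromosomes held 1 pair. Over all sequences there were 156 positions, of which 15 held at least 4 pairs and together 81 pairs. The strong pairs much higher in B were more often in runs, with 127 of 131 on chromosomes within 20 kb of another of their kind. No such share was worked out for weaker pairs or for all pairs. Near-equal pairs in runs on chromosomes had a median D53 score of 172.5 and a median log2 ratio of 0.27 (64 pairs), and lone ones had 141 and 0.12 (50 pairs). Pairs that share a peak can be neighbours by construction, and 16 of the 114 pairs involved a peak with several partners. Over all sequences such pairs had a median log2 ratio of 0.43, against 0.10 for the rest. Without them 53.9% of pairs over all sequences had another within 100 kb, against 58.6% with them. The share without them was not worked out for chromosomes alone. The values for runs and lone pairs include the pairs that involved a peak with several partners. On an unplaced scaffold pairs cannot lie far apart, so distances there are not set beside those on chromosomes.

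The largest run was on A03, where 8 near-equal pairs lay in 57.2 kb between 30382872 and 30440055. Their D53 scores were 148, 230, 200, 220, 213, 114, 164 and 188 in order of position, and their B scores 85, 263, 160, 192, 176, 90, 165 and 147. D53 was higher in 6 of the 8, and no pair much higher in B lay inside. On A11 7 pairs lay in 26.7 kb from 25236760 to 25263472, with D53 scores of 121 to 200 and B scores of 104 to 171. These 7 pairs came from 5 D53 peaks, since the D53 peak at 25236760 to 25238153, with a score of 200, covered 3 B peaks with scores of 111, 109 and 171 and entered 3 times. On D08 6 pairs lay in 39.7 kb from 39148371 to 39188044, with D53 scores of 98 to 157 and B scores of 87 to 194. D53 was higher in 3 of the 6 pairs on D08, with a median log2 ratio of 0.01, while A03 and A11 had medians of 0.30 and 0.32.

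On unplaced scaffolds some runs filled most of the stretch they spanned. Unplaced scaffold7624 carried 5 near-equal pairs within 7.59 kb, of which 82.4% was under D53 peaks. Its D53 scores were 380, 355, 334, 357 and 173 in order of position, beside B scores of 376, 362, 308, 382 and 173. Unplaced scaffold5820 carried 7 pairs in 7.30 kb, with D53 scores of 165 to 342 and B scores of 157 to 372. The SD of the log2 ratio was 0.08 over the 5 pairs of scaffold7624 and 0.22 over the 7 of scaffold5820. The 15 runs of at least 4 pairs had median log2 ratios of -0.04 to 0.37, and none of them held a pair much higher in B.

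**Figure D4:**
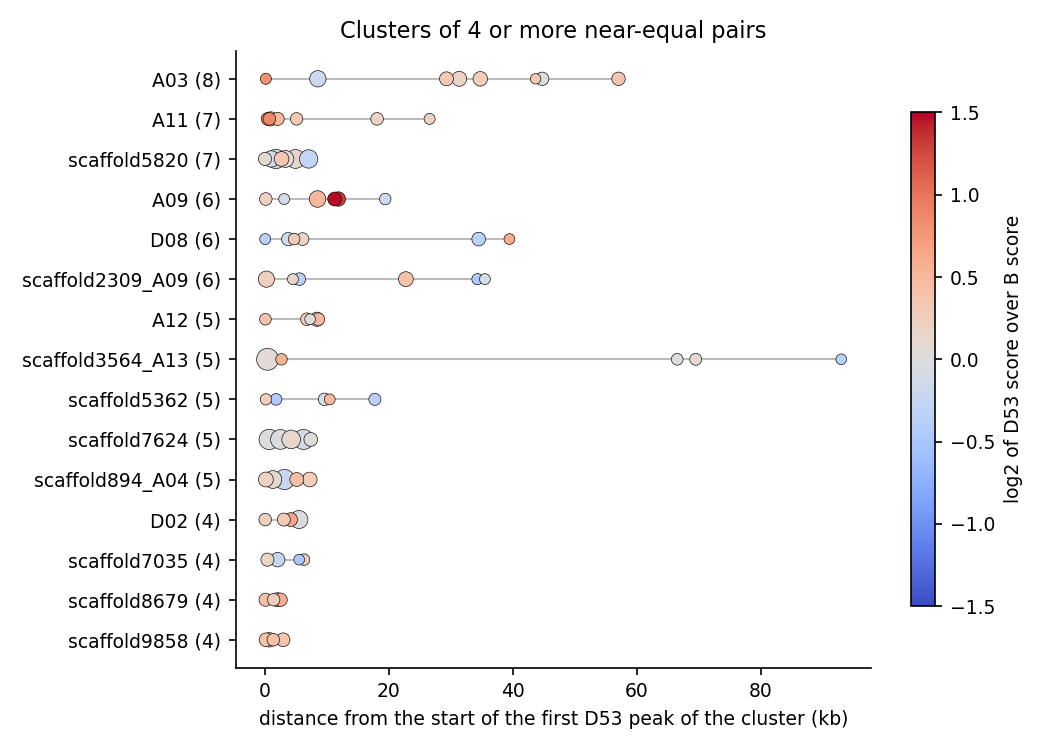
The 15 runs of at least 4 near-equal pairs, 1 per row with the number of pairs in brackets; each circle is a pair at its distance in kb from the start of the first D53 peak, with its area scaled to the geometric mean score and its colour giving the log2 ratio of D53 score over B score. Runs span 2.79 to 93.0 kb, and only A09 holds circles above 1, both from 1 D53 peak over several B peaks.

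Near-equal pairs and strong pairs much higher in B did not share a scaffold. Of the 241 scaffolds with a strong pair, 88 held near-equal pairs and no pair much higher in B, 121 held pairs much higher in B and no near-equal pair, 32 held only pairs between the bounds, and 0 held both kinds. The 173 scaffolds with 1 strong pair cannot hold both. Among the 68 scaffolds with at least 2 strong pairs the numbers were 29, 38, 1 and 0. Of the 29, 4 also held a pair between the bounds, and of the 38, 7 did. The 2 kinds are cut on the ratio, and the pairs between belong to neither. A count of 0 of 68 allows a share of up to 4.41%, taken as 3 counts of the total. No expected number of shared scaffolds was worked out. On chromosomes 6 carried both kinds, namely A05, A08, A12, D06, D08 and D12. The closest approach there was on A05, where a near-equal pair at 64396193 to 64396484 (134 for D53, 99 for B) lay 2.04 Mb from a pair much higher in B at 62355446 to 62357555 (75 for D53, 292 for B). The 35 near-equal pairs on these 6 chromosomes were a median of 23.6 Mb from the nearest pair much higher in B. Pairs much higher in B lay on only 8 chromosomes, with 127 of 131 within 20 kb of another. No distance of other pairs to them is set beside these values, so whether near-equal pairs lay unusually far off was not tested.

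Weaker pairs with a geometric mean of 50 to below 100 beside the near-equal ones had ratios mostly above the bound. They were placed by their geometric mean, and the bound on the ratio was not applied to them. Weaker pairs that shared a peak with a strong pair were left out, and a neighbour is a pair within 10 kb. From a geometric mean of 50 to below 100, 30 of the 32 weaker pairs beside a near-equal pair had a log2 ratio above -0.5, beside 21.1% of all 933 weaker pairs in this score band. Beside pairs much higher in B the number was 1 of 252, and beside neither it was 166 of 649. The median log2 ratio was 0.14 (quartiles -0.06 and 0.30) beside near-equal pairs, -2.04 (-2.26 and -1.83) beside pairs much higher in B and -0.77 (-1.08 and -0.49) beside neither. The groups held unlike scores, with a median geometric mean of 84.6 beside near-equal pairs and 66.1 beside neither. From 20 to below 50 the median log2 ratio was -0.34 beside near-equal pairs (7 pairs, quartiles -0.49 and -0.11). On chromosomes the median of neighbours of any score was 0.11 (18 pairs), -0.02 without A02 and -0.19 when neighbours up to 100 kb away were taken.

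From 50 to below 100 most neighbours were above the bound in each sequence class. On chromosomes 16 of 17 were so, with a median of 0.20 on 11 chromosomes. On scaffolds named after a chromosome 4 of 5 were, and on unplaced scaffolds 10 of 10. For example, A02 43154874 to 43155177 scored 111 for D53 and 72 for B, A09 59219424 to 59219830 scored 104 for D53 and 78 for B, and D06 24849142 to 24849368 scored 86 for D53 and 87 for B. The exception on chromosomes was A12 27740446 to 27740742, with 51 for D53 and 75 for B. These examples were chosen after their values were seen.

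**Figure D5:**
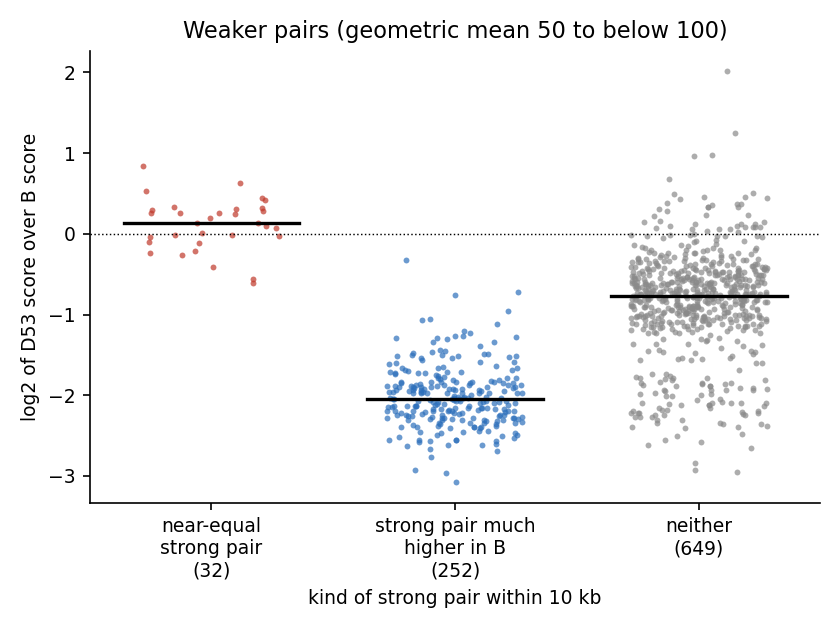
Log2 ratio of D53 score over B score (y axis) of weaker pairs with a geometric mean of 50 to below 100, by the kind of strong pair within 10 kb (x axis, numbers in brackets); each point is 1 pair, black bars are medians, and the dotted line marks equal scores. The 32 pairs beside a near-equal pair have a median of 0.14, above the medians of -2.04 and -0.77 of the other groups.

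Strong peaks called in only one list also lay beside near-equal pairs. Of the 18 D53 peaks on chromosomes with a score of at least 50 and no B partner, 7 were within 10 kb of a near-equal pair, or 38.9% (95% Wilson interval 20.3 to 61.4). Of the 5227 unpartnered D53 peaks with a score under 10, 0 were (Wilson interval up to 0.0734%, or 0.0574% as 3 counts of the total). From a score of 10 to below 20 the number was 2 of 599, and from 20 to below 50 it was 0 of 72. The ground within 10 kb of a near-equal pair made up 1.53 Mb, or 0.0795% of the chromosome span. The rule chose this ground for high scores in both lists, so its part of the span is not an expected share of peaks. Among unpartnered B peaks on chromosomes the numbers were 28 of 117 from a score of 50, or 23.9% (17.1 to 32.4), and 3 of 3943 under 10. They were 1 of 1630 from 10 to below 20 and 3 of 460 from 20 to below 50. Another 18 of these 117 B peaks, and 0 of the 18 D53 peaks, lay within 10 kb of a pair much higher in B.

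Of the 10 unpartnered D53 peaks of highest score on chromosomes, 7 were of this kind. The peak at D01 17204874 to 17205096, with a score of 150, lay 1.28 kb from a near-equal pair. At A02 16903918 to 16904174 the score was 138 and the distance 0.77 kb, and at A03 30387593 to 30387847, inside the A03 run, the score was 128 and the distance 3.92 kb. Of the 10 unpartnered B peaks with the highest scores there, 4 were within 10 kb of a near-equal pair, among them D08 39149122 to 39149565 with a score of 177, inside the D08 run, and A12 83773639 to 83773846 with a score of 160, 2.75 kb away. The other 6 of these B peaks were 1026 to 34135 kb off, and the highest of all, at A08 1904518 to 1904709 with a score of 199, was 13555 kb from the nearest near-equal pair. The D53 peak at A04 42088659 to 42088879, with a score of 137, was 14717 kb from the nearest. In the 15 runs of at least 4 pairs there were also 8 unpartnered D53 and 20 unpartnered B peaks of any score.

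Along chromosomes 65 of 114 near-equal pairs lay in the central 50% of the span (95% Wilson interval of the share 47.8 to 65.7%), beside 62.3% of all other pairs (60.7 to 63.9). This share was within counting error of that of the other pairs.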

How the data were processed

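ChIP-seq peaks of 2 FLAG immunoprecipitates from cotton leaves, D53 and B, were analysed. The authors deposited 1 peak list for each, called on 1 library against its own input, per the peak names in the lists. The score that the authors deposited is a whole number per peak. What it measures is not stated in the labels or lists, and the aligner, caller, threshold and genome build are not given either. Scores were not rescaled, as read depth is unknown, and a difference in depth would shift every ratio between the lists. Positions are counted from 1 in the coordinates of the lists. No genome of this build was used here, so no sequence or gene is given.

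Peaks were paired on at least 1 bp in common, and the number of pairs equalled that of bedtools 2.31.1. Members, bounds and distances were chosen with earlier results of these data known. The functions were tested on simulated data. Regions were named by rule: the 10 highest pairs by geometric mean on chromosomes and on scaffolds, sequences with most pairs, the extreme ratios and the pairs at each bound. Shares carry 95% Wilson intervals, or for a count of 0 the limit of 3 counts of the total, and medians binomial intervals. Software was matplotlib 3.10.9, SciPy 1.17.1, pandas 2.3.3 and NumPy 2.4.6 under Python 3.11.15. Alternatives covered overlap, bounds, distances and sequences left out.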

Additional observations from a re-analysis of the deposited data

How the results depend on the processing

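Of 60 alternative values for 10 results, 54 stayed within the counting interval of the reported value, or within 1.5 times a count. The number of near-equal pairs was 263 as reported and 135 with a geometric mean of at least 150. It was 168 with a log2 ratio above 0 and lay between 230 and 331 under the other settings. Among these, a bound on the ratio set relative to the median of all pairs, at -1.18 for the deposited scores, gave 325. The median D53 width of 369 bp was 439 bp with a geometric mean of at least 150 and 414 bp with a log2 ratio above 0, and the median B width of 353 bp was 420 bp with a geometric mean of at least 150. Fewer pairs enter there by construction. The shares on chromosomes, on unplaced scaffolds, on A and within 100 kb of another near-equal pair stayed within their intervals under each setting run, including without A11. The median log2 ratio of weaker pairs of any score beside near-equal pairs on chromosomes was 0.11 (18 pairs, 95% interval -0.04 to 0.31), and it was -0.19 within 100 kb in place of 10 kb, for which the cause was not tested. Without A02, which with A09 held the most of these pairs, it was -0.02. The settings on neighbours and on the centring of the ratio were chosen after seeing the data. With 1 library for each IP no paired analysis was possible, no test was made and no library could be left out. Unknown depth limits every statement on a peak missing from one list.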

Other observations

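The 74 strong pairs between the bounds had log2 ratios of -1.49 to -0.50 and a median of -0.92. Of these 74, 5 were within 10 kb of a near-equal pair and 8 within 10 kb of a pair much higher in B. Their median D53 score was 87 and their median B score 171.5, and their median D53 width was 333 bp. On the 26 chromosomes, 28 of them were spread over 18 chromosomes.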
